A study of Mus musculus with 12 samples.

Results

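The genes described here are 33 members of the T cell receptor complex and its proximal signaling machinery. They were taken by symbol from a list written by function, and all 33 were found among the 10405 genes listed for regulatory T cells (Treg) and among the 9886 listed for conventional CD4+ T cells (Tcon). By role they are 4 signaling chains of the receptor, 5 co-receptors and surface partners, 4 tyrosine kinases, 8 adaptors and scaffold proteins, 5 enzymes and scaffolds of the downstream branches, and 7 negative regulators. No member shared its values with another symbol, and a minimum of 1 CPM (library-scaled counts, the unit named in the table headers) in 2 libraries removed none of them.

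The T cell receptor recognises peptide on MHC but has no signaling domain of its own, and the CD3 and zeta chains carry the tyrosine motifs that are phosphorylated by the kinase Lck when the receptor is engaged. Zap70 then binds these motifs and phosphorylates the scaffold Lat and the adaptor Slp-76, from which phospholipase C, Ras and protein kinase C theta carry the signal towards calcium, MAP kinase and NF-kB. In Treg the same machinery is needed for their development and function, and FOXP3, the transcription factor that defines them, is known to bind and modulate genes of this pathway.

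RNA-seq libraries came from B6.Cg-Foxp3tm2Tch/J mice, in which an IRES-GFP cassette marks cells that express Foxp3. All 12 libraries carry this reporter allele. Mice received vehicle (DMSO in the sample titles) or SAH-FOXP3(229-259)C (SAH from here on), a helical peptide of FOXP3 sequence held in shape by a chemical staple, at 25 mg/kg by intraperitoneal injection once daily for 2 days, and CD4+CD25+FOXP3+ Treg and naive CD4+ Tcon were taken from lymph node and spleen. Each cell type in each organ had 1 vehicle library, numbered 1 in lymph node and 4 in spleen, and 2 SAH libraries, numbered 2 and 3 in lymph node and 5 and 6 in spleen. The labels do not give age, sex or the number of mice behind a library, so p-values measure the spread between these libraries, which may be technical. A vehicle group of 1 library per organ has no spread of its own, and the SAH effect was therefore estimated over both organs together, with organ as a term. The steps between low values put the depth at 36400000 to 48900000 reads per library over the listed genes. The labels of the sorted cells were checked on marker genes: 8 Treg markers summed to 4543 to 5136 CPM in Treg and 260 to 324 CPM in Tcon (for example Foxp3, Il2ra and Ctla4), while 7 markers of naive cells summed to 2477 to 2789 CPM in Treg and 5598 to 5951 CPM in Tcon.

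The 250 bases upstream of the RefSeq start site (GRCm38.p6) are shown for 6 members: the chains Cd3d, Cd3e and Cd247, whose levels were ordered differently between Treg and Tcon; Ptpn6, which was lower in spleen in both cell types; and Themis and Cbl, which had the largest Treg to Tcon ratios in each direction. They were chosen after these values were seen, and for Themis, which has 2 RefSeq windows, the first listed is shown. Each runs 5′ to 3′ in the direction of the gene, and capitals mark the ETS-type motif GGAAGT or its reverse complement ACTTCC. They lie at chr9:44981536-44981785 (plus strand), chr9:45009612-45009861 (minus), chr1:165788431-165788680 (plus), chr6:124738710-124738959 (minus), chr10:28668110-28668359 (plus) and chr9:44234047-44234296 (minus).
Cd3d: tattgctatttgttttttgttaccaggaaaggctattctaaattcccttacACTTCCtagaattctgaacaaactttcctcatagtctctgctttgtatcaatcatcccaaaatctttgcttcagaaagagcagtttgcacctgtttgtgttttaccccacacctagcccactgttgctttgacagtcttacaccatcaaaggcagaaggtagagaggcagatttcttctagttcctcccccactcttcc
Cd3e: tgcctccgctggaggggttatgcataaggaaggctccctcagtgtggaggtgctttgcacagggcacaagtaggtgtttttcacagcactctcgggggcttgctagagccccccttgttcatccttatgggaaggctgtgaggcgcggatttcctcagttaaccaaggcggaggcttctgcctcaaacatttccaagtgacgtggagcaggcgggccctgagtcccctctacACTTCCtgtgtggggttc
Cd247: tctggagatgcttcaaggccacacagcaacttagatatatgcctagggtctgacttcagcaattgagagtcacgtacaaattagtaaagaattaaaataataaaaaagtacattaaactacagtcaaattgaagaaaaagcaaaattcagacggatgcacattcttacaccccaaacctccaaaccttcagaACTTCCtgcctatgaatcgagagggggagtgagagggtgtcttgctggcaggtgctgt
Ptpn6: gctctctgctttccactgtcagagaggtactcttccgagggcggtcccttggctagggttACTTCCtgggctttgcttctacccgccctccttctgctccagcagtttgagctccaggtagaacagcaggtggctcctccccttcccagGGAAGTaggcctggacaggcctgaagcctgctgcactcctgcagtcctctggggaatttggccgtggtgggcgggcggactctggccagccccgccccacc
Themis: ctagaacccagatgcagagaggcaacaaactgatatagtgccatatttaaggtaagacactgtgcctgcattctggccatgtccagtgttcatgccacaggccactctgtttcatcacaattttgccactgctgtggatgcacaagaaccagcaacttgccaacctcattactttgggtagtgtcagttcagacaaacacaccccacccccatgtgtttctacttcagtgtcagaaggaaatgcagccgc
Cbl: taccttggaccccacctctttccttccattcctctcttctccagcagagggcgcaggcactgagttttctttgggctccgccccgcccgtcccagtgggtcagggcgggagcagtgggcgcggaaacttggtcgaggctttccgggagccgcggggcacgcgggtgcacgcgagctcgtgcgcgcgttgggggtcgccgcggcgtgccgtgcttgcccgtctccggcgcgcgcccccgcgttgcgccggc

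RefSeq promoter windows, 1 per gene symbol, matched 28 of the 33 members, and the other 5 (Cd2, Cd4, Cd6, Malt1 and Sh2d1a) are named only. On either strand of these 250 bases the ETS-type motif GGAAGT was found in 11 of the 28 (39.3%), namely Cd247, Cd3d, Cd3e, Cd5, Lck, Ptpn22, Ptpn6, Ptprc, Txk, Vav1 and Was, against 20.0% of the 27025 promoter windows of all genes. ETS factors are a large family that includes the T cell factors Ets1 and Elf1. The RUNX-type motif TGTGGT was found in 2 of 28 members (Lck and Was) against 14.2% of all windows, and the forkhead motif TGTTTAC, the core of the site bound by FOXP3 and other forkhead proteins, in 1 of 28 (Grap2) against 3.09%. None of these motifs contains another, and a match describes the sequence, not a bound site. The windows of all genes include genes not listed for these cells, and no share among listed genes alone was computed. By position, 7 of the 33 genes lie on chromosome 9 (Cd3d, Cd3e, Cd3g, Nck1, Csk, Cbl and Ubash3b), and the starts of the divergent pair Cd3d and Cd3g are 1355 bp apart.

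Levels of the members were compared between genes per kilobase of exon, using the union of annotated exons (GENCODE vM21, GRCm38). On that scale Lck was the most abundant member in both cell types, at 291 CPM per kb in Treg and 301 CPM per kb in Tcon. Cd2, an adhesion receptor that binds CD48 on other cells, stood next in Treg at 289 CPM per kb, a value within 1 SD of Lck, and Cd4, the co-receptor for MHC class II, stood next in Tcon at 246 CPM per kb. Among the receptor chains, Cd3d was at 199 and 223 CPM per kb in Treg and Tcon, Cd3g at 120 and 146, Cd3e at 98.8 and 82.3, and Cd247, the zeta chain, at 56.5 and 75.3. The least abundant member was Themis in Treg (4.97 CPM per kb) and Ubash3b in Tcon (4.95 CPM per kb). This order depends on the length used. Ptprc, the highest in CPM, ranked 6 per kb in both cell types with an exon union of 18313 bp. Exons of Cd247 overlap Pou2f1 on the other strand and those of Plcg1 overlap Zhx3. The library kit keeps strand, but the labels do not say whether counting used it, so some reads of these pairs may be shared.

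**Figure D1:**
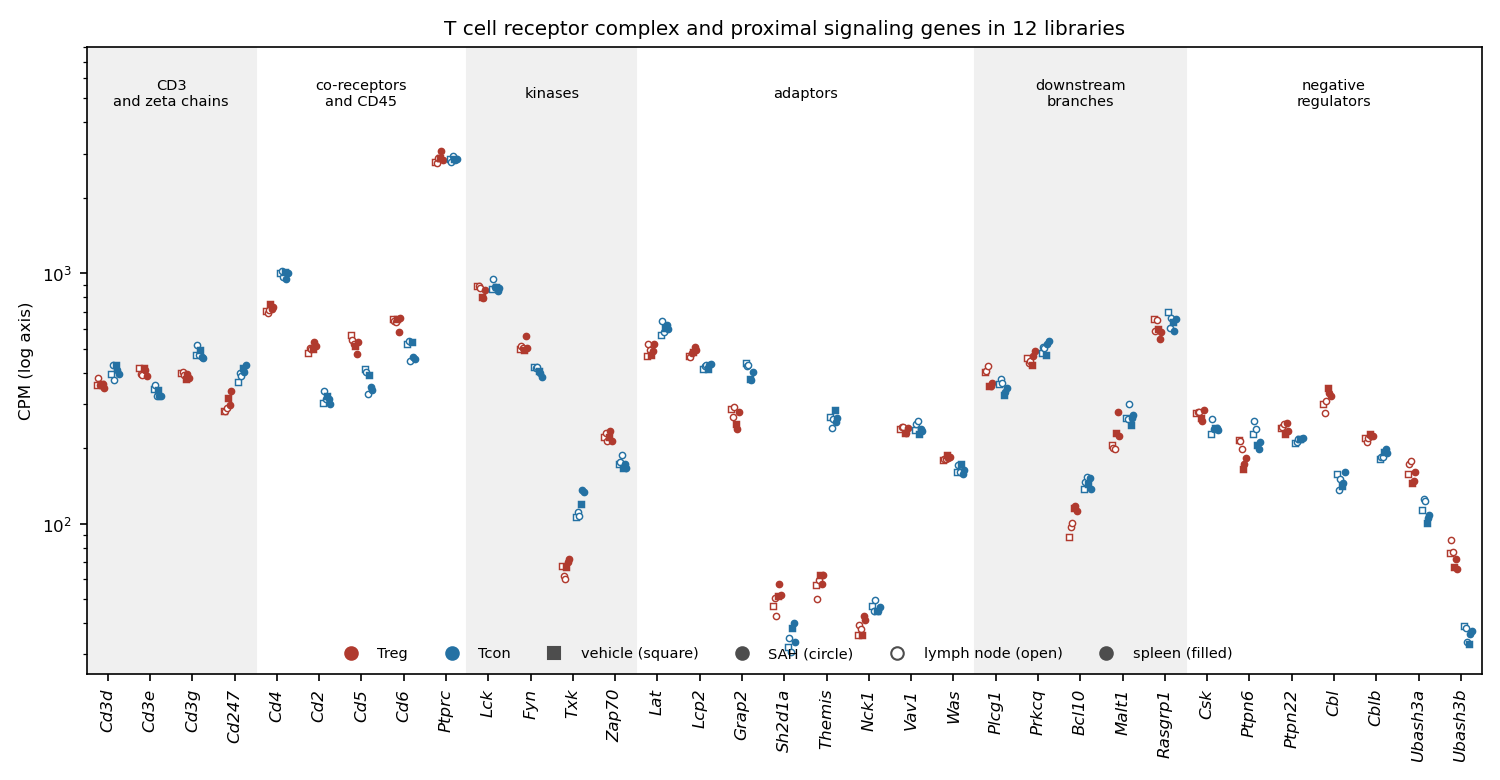
CPM of the 33 genes in each library, on a log axis, with genes grouped by role; red is Treg, blue is Tcon, squares are vehicle, circles SAH, open symbols lymph node and filled symbols spleen. Ptprc sits highest, between 2741 and 3075 CPM in all 12 libraries, and Themis shows the widest gap between the cell types.

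Treg and Tcon differed in level at many of these genes, although the values of the cell types were deposited in separate tables that were normalized separately, so levels across them are described and not tested. The 6 Treg libraries lay above all 6 Tcon libraries for 14 members and below them for 9, and the libraries overlapped for 10. Of all 9784 genes in both tables, 33.1% lay wholly higher in Treg and 19.1% wholly higher in Tcon, together 52.1%. Among the 4822 genes at least as abundant as the lowest member the share was 55.2%, against 69.7% of the members. The median log2 ratio was 0.01 over the members and 0.09 over all genes. Set relative to the median of all genes, the split became 12 higher in Treg and 13 higher in Tcon. Ptpn22 and Was left the first group, and Cd3d, Lck, Vav1 and Prkcq joined the second. The shares of all genes were not recomputed on that scale, so these counts cannot be set against the shares above. Members varied little between libraries of a cell type: the median SD of log2 CPM was 0.0710 in Treg and 0.0674 in Tcon, near the 0.0737 and 0.0791 of genes at least as abundant as the lowest member.

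The receptor's own chains did not move as a unit between the cell types. Cd3e (chr9:44998740-45009627) read 416, 397 and 392 CPM in Treg of lymph node and 417, 409 and 388 CPM in Treg of spleen, the vehicle library first in each organ. In Tcon Cd3e read 344, 357 and 324 CPM in lymph node and 343, 324 and 324 CPM in spleen. Every Treg value of Cd3e was thus above every Tcon value, and the ratio of the means was 1.20. For Cd3g (chr9:44969572-44980431) the order was the opposite. Its Treg libraries read 398, 404 and 390.3 CPM in lymph node and 379, 397 and 382 CPM in spleen, and its Tcon libraries 472, 516 and 469 CPM in lymph node and 491, 464 and 459.5 CPM in spleen. The Tcon to Treg ratio of Cd3g was 1.22, with no overlap. Cd247 (chr1:165788681-165877277) read 281, 282 and 289.7 CPM in lymph node Treg and 317, 297 and 339 CPM in spleen Treg. Its Tcon values were 367, 400.1 and 388 CPM in lymph node and 419.7, 404 and 429.7 CPM in spleen, again all higher, by 1.33 times. Cd3d (chr9:44981786-44987339) read 358, 380.4 and 357 CPM in lymph node Treg, 359, 359.9 and 347 CPM in spleen Treg, 396, 429 and 375 CPM in lymph node Tcon and 429, 409 and 396 CPM in spleen Tcon. Its ranges overlapped through the highest Treg and the lowest Tcon library, both SAH libraries of lymph node.

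Among the co-receptors and surface partners, Cd2, Cd5 and Cd6 were higher in Treg and Cd4 was higher in Tcon. Cd2 ranged from 478 to 529 CPM in Treg (median 499) and from 301 to 339.8 CPM in Tcon (median 314), a ratio of means of 1.59. Cd5, a scavenger-receptor-type protein that dampens receptor signals, ranged from 476 to 569 CPM in Treg (median 525) and from 331 to 413 CPM in Tcon (median 371), a ratio of 1.41. Its relative Cd6 had a ratio of 1.30. Cd4 ranged from 696 to 752 CPM in Treg (median 715) and from 947 to 1018 CPM in Tcon (median 1003), so that Tcon were 1.38 times higher. Ptprc, which encodes CD45, the phosphatase that removes the inhibitory phosphate from Lck, overlapped between the cell types. Its mean was 2866 ± 119 CPM over the Treg libraries and 2854 ± 49.7 CPM over the Tcon libraries (SD, n = 6 each).

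The kinases and adaptors divided in both directions. Lck, the kinase that starts the cascade, overlapped (ratio 0.966), and Fyn, a Src-family relative, and Zap70 were higher in Treg by 1.25 and 1.28 times without overlap. Txk, a Tec-family kinase of resting T cells, ranged from 60.0 to 72.4 CPM in Treg (median 67.5) and from 106 to 137 CPM in Tcon (median 116), 1.79 times higher in Tcon. The widest gap of all members was at Themis, an adaptor best known for its role in thymic selection. Themis ranged from 50.0 to 62.3 CPM in Treg (median 58.4) and from 241 to 283 CPM in Tcon (median 263), so that Tcon were 4.51 times higher. The Treg to Tcon ratio of Themis was 0.216 within lymph node and 0.227 within spleen. Grap2, the adaptor that links Lat to Slp-76, ranged from 238 to 291 CPM in Treg (median 273) and from 376 to 438 CPM in Tcon (median 415), 1.52 times higher in Tcon. Lat and Nck1 were also wholly higher in Tcon, by 1.22 and 1.19 times, while Lcp2, which encodes Slp-76, and Sh2d1a, the SLAM-receptor adaptor SAP, were wholly higher in Treg, by 1.14 and 1.43 times. Sh2d1a ranged from 42.8 to 57.5 CPM in Treg (median 51.0) and from 30.6 to 40.1 CPM in Tcon (median 34.2). Vav1, an exchange factor for Rac, overlapped at a ratio of 0.986, and Was, the actin regulator, was wholly higher in Treg by 1.11 times.

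Of the 5 branch genes only Bcl10, which with Malt1 relays the signal to NF-kB, had no overlap: it ranged from 88.3 to 118 CPM in Treg (median 106) and from 137 to 154 CPM in Tcon (median 145), 1.38 times higher in Tcon. Of the 7 negative regulators, 5 were wholly higher in Treg and none wholly higher in Tcon, against 33.1% and 19.1% of all genes. Cbl, a ubiquitin ligase that targets activated kinases, ranged from 276 to 349 CPM in Treg (median 317) and from 136 to 159.9 CPM in Tcon (median 148), a ratio of 2.12, with 1.99 in lymph node and 2.25 in spleen. Ubash3b and Ubash3a encode the phosphatases Sts-1 and Sts-2, which act on Zap70. Ubash3b ranged from 65.7 to 86.2 CPM in Treg (median 74.2) and from 33.1 to 38.8 CPM in Tcon (median 36.7), a ratio of 2.05. Ubash3a ranged from 145 to 177 CPM in Treg (median 159) and from 101 to 125 CPM in Tcon (median 111), a ratio of 1.42. Cblb and Ptpn22 were wholly higher in Treg by smaller ratios of 1.17 and 1.12, and Csk and Ptpn6 overlapped. Relative to the median of all genes, Ptpn22 was no longer wholly higher in Treg.

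The comparison at the centre of the study asked whether the stapled FOXP3 peptide altered expression in the sorted cells. In Treg none of the 33 members passed the test: 0 were called at an adjusted p below 0.05 (limma with Benjamini-Hochberg adjustment over all genes), where 0.202% of all genes were called (0.135% higher and 0.0673% lower), and 3 had an unadjusted p under 0.05. Member estimates ran from -0.08 to 0.16 on the log2(CPM + 1) scale, and no 95% interval reached beyond a fold of 0.867 or 1.22. The median log2 difference was 0.02 over the members and 0.00 over all genes. By role, the largest estimate among the 4 chains was Cd3e at -0.07 (interval -0.18 to 0.03), and the SAH estimates of Cd3d, Cd3g and Cd247 were 0.01, 0.02 and 0.01. The 3 largest positive estimates were at Nck1, an adaptor to the actin cytoskeleton, at Ubash3a and at Lat.

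Nck1 read 36.0 CPM in the vehicle library and 39.3 and 38.0 CPM in the SAH libraries of lymph node Treg, and 35.9 against 42.8 and 41.1 CPM in spleen Treg. All 4 SAH libraries were above the vehicle library of their organ, and the log2 difference was 0.16 ± 0.06 (SE; adjusted p = 0.622). Ubash3a read 157 against 173 and 177 CPM in lymph node and 145 against 148 and 161 CPM in spleen, a log2 difference of 0.12 (adjusted p = 0.646), and Lat gave 0.11 (adjusted p = 0.708). The 3 lowest estimates were Rasgrp1 at -0.08, Cd3e at -0.07 and Cd5 at -0.07. All 4 SAH libraries lay on 1 side of their vehicle library for 11 members, 8 above and 3 below, where 25.2% of all genes did (13.4% above and 11.7% below).

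In Tcon none of the 33 passed either: 0 were called (limma), against 1.04% of all genes (0.88% higher and 0.162% lower), and 2 had an unadjusted p under 0.05. Estimates ran from -0.18 to 0.11, within folds of 0.789 to 1.18 by their 95% intervals, and the median was 0.02 against 0.00 over all genes. The 2 genes lowest in order, Cd5 and Cd6, are neighbours on chromosome 19 (chr19:10717116-10739002 and chr19:10789341-10830058). Cd5 read 413 CPM in vehicle and 404 and 331 CPM in SAH libraries of lymph node, and 392 against 351 and 342 CPM in spleen. All 4 SAH values of Cd5 were below their vehicle value, and the log2 difference was -0.18 ± 0.07 (SE; adjusted p = 0.314). Cd6 read 521 against 535 and 447 CPM in lymph node and 531 against 464 and 456 CPM in spleen, a log2 difference of -0.15 (adjusted p = 0.394). Library 2 was the SAH library in which both genes were nearest to or above vehicle, and without it Cd5 and Cd6 were called, at -0.24 (adjusted p = 0.0490) and -0.21 (adjusted p = 0.0470). Themis, at -0.11, came next, and Prkcq, Txk and Ubash3a had the highest estimates, each 0.11 (adjusted p from 0.351 to 0.417). The SAH libraries all lay above their vehicle library for 6 members and below it for 2, where 33.3% of all genes did (16.6% above and 16.7% below).

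The SAH effect did not differ detectably between Treg and Tcon at any member: 0 of 33 were called for the difference (limma), with 0 at an unadjusted p under 0.05 and 0% of all genes called. The interval of this difference was widest in the positive direction at Cd5, whose Treg minus Tcon difference was 0.11 (interval -0.10 to 0.32), and in the negative direction at Txk, at -0.14 (interval -0.32 to 0.03). The SAH effect was also compared between organs within each cell type. Again 0 of 33 members were called in Treg, where 0.00961% of all genes were called, and 0 of 33 in Tcon, where 0% were, with 0 members at an unadjusted p under 0.05 in either (limma). These organ by treatment fits leave 2 residual degrees of freedom, and their intervals reached folds of 0.722 to 1.48. In the authors' deposited table no member was listed as higher or lower in Treg or Tcon. The lowest false discovery rate of a member there was 0.742 in Treg and 0.331 in Tcon, and the authors' log2 fold changes of members ran from -0.08 to 0.16 and from -0.17 to 0.12.

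**Figure D2:**
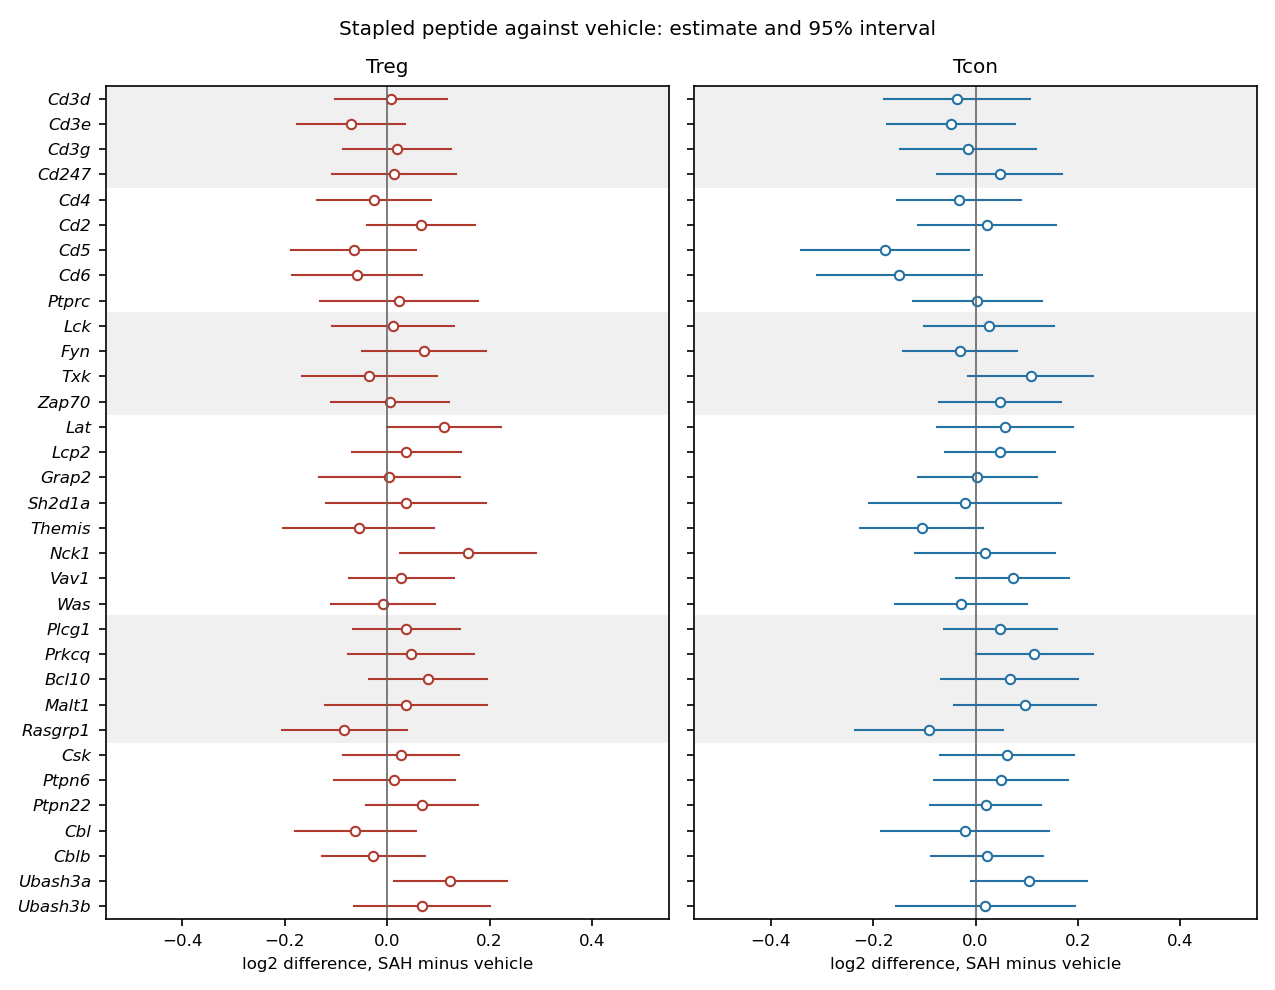
Log2 difference between SAH and vehicle, with organ as a term, for each of the 33 genes in Treg (left) and Tcon (right); points are estimates and lines 95% intervals. No gene was called, and the points lie between -0.18 and 0.16.

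Other genes of the pathway gave the same count. From a list of further receptor and costimulatory signaling genes, 0 of 97 measured in Treg and 0 of 96 in Tcon passed the test with SAH (limma; 3 and 14 at an unadjusted p under 0.05), where 0.202% and 1.04% of all genes did. Of 16 genes known to be induced by receptor signals, 0 passed in Treg (limma; 3 at an unadjusted p under 0.05) and 4 rose in Tcon, where 0.88% of all genes rose. These were the nuclear receptors Nr4a3 (log2 difference 0.66), Nr4a2 (0.55) and Nr4a1 (0.42), and the MAP kinase phosphatase Dusp5 (0.34). The Treg minus Tcon difference was called at 0 of these 16, with 7 at an unadjusted p under 0.05. Both gene lists were chosen with earlier results of these data known, so their counts are not independent of those results.

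Between the organs some members passed the test, in counts that are given beside the share of all genes and are not read as particular to these genes. In Treg 7 of 33 members were called between spleen and lymph node at an adjusted p below 0.05, where 14.7% of all genes were called: 3 rose in spleen (Bcl10, Malt1 and Cbl) and 4 fell (Ptpn6, Plcg1, Ubash3b and Ubash3a). In all, 12 members had an unadjusted p under 0.05. The median log2 difference was 0.01 over the members and 0.00 over all genes. By role, 0 of 4 chains, 0 of 5 co-receptors, 0 of 4 kinases and 0 of 8 adaptors were called, against 3 of 5 branch genes and 4 of 7 negative regulators. In bulk RNA, fewer cells of a type and less RNA per cell cannot be told apart.

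Bcl10 (chr3:145922804-145934356) read 88.3, 96.8 and 100.2 CPM in lymph node Treg and 115, 118 and 113 CPM in spleen Treg. The groups did not overlap, and the log2 difference was 0.27 ± 0.05 (SE), a fold of 1.21 (adjusted p = 0.00209). Bcl10 was also called with any 1 Treg library left out. Malt1 (chr18:65430938-65479067), its partner in the NF-kB branch, read 206, 200.3 and 199 CPM in lymph node and 229, 278 and 223 CPM in spleen. The highest spleen value was library 5, and the log2 difference was 0.26 ± 0.07 (SE; adjusted p = 0.0197). Cbl (chr9:44142976-44234049) read 299.9, 276 and 309.8 CPM in lymph node and 349, 333 and 323 CPM in spleen, a log2 difference of 0.18 ± 0.05 (SE; adjusted p = 0.0288). All 3 genes were thus higher in each spleen library than in any lymph node library of Treg.

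Ptpn6 (chr6:124720707-124738714) encodes SHP-1, a tyrosine phosphatase that counters Lck and Zap70. It read 216, 213 and 199 CPM in lymph node Treg and 166, 174 and 182 CPM in spleen Treg, a log2 difference of -0.27 ± 0.05 (SE) and a fold of 0.830 (adjusted p = 0.00296). Plcg1 (chr2:160731300-160775760), the phospholipase that generates the calcium signal, read 401, 407 and 425 CPM in lymph node and 354, 355 and 365 CPM in spleen, a difference of -0.20 (adjusted p = 0.00995). The spleen values of both genes lay wholly below those of lymph node. Ubash3b (chr9:41011098-41161697) read 76.0, 86.2 and 77.2 CPM in lymph node and 67.2, 72.3 and 65.7 CPM in spleen, a difference of -0.22 (adjusted p = 0.0210). Ubash3a (chr17:31207873-31246892) read 157, 173 and 177 CPM in lymph node and 145, 148 and 161 CPM in spleen, a difference of -0.16 (adjusted p = 0.0415), and its groups overlapped. Spleen and lymph node libraries did not overlap for 9 members in the higher and 4 in the lower direction, against 32% of all genes (16.8% higher and 15.1% lower).

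All of these Treg calls but that of Bcl10 were lost with at least 1 library left out, with estimates of the same sign. Ptpn6 was at -0.21 without library 1 or 4 (adjusted p = 0.0662 and 0.0657), and Plcg1 at -0.21 to -0.18 without library 1, 3 or 4 (0.0674 to 0.0752). Malt1 was at 0.24 to 0.25 without library 2 or 3 (0.136 and 0.0809), and Cbl at 0.14 to 0.16 without library 1, 2 or 4 (0.180 to 0.210). Ubash3b was at -0.24 to -0.17 without library 1, 2 or 4 (0.0700 to 0.158), and Ubash3a at -0.18 to -0.12 without library 1, 2, 3, 4 or 5 (0.121 to 0.160). With the variance trend removed from the model, 2 members were called, Bcl10 and Ptpn6, among 1053 of all 10405 genes. Without library 6 the count rose to 11, with Cd5, Grap2, Sh2d1a and Rasgrp1 added, and without library 5 Cd247 was called as well, at 0.21 (adjusted p = 0.00628). Cd247 with all libraries had a log2 difference of 0.16 (adjusted p = 0.0632).

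In Tcon 3 of 33 members were called between organs, where 4.73% of all genes were called (3.28% higher and 1.46% lower): Txk rose in spleen, and Ubash3a and Ptpn6 fell. Txk (chr5:72695978-72752777) read 106, 112 and 107 CPM in lymph node Tcon and 119.8, 137 and 133 CPM in spleen Tcon, a log2 difference of 0.26 ± 0.05 (SE; adjusted p = 0.0199). Ubash3a read 113, 125 and 123 CPM in lymph node and 101, 105 and 108 CPM in spleen, a difference of -0.20 ± 0.05 (SE; adjusted p = 0.0416). Ptpn6 read 229, 257 and 237 CPM in lymph node and 206, 198 and 211 CPM in spleen, a difference of -0.23 ± 0.06 (SE; adjusted p = 0.0419). The organs did not overlap at any of these 3 genes, and they did not overlap for 3 members in the higher and 6 in the lower direction, against 19.3% of all genes (10% higher and 9.33% lower). Ubash3a and Ptpn6 were the 2 members called in both cell types, in the same direction. Leaving out any 1 Tcon library ended the calls of Ubash3a (adjusted p from 0.0582 to 0.231) and Ptpn6 (0.0634 to 0.228), with estimates of -0.22 to -0.19 and -0.27 to -0.19. Leaving out library 3, 5 or 6 ended that of Txk (0.108, 0.122 and 0.0698), with estimates of 0.23 to 0.26. With the variance trend removed, 0 members were called in Tcon (adjusted p from 0.0587 to 0.109 for these 3). The 4 chains, 5 co-receptors, 8 adaptors and 5 branch genes had 0 calls (limma; 1, 0, 2 and 1 at an unadjusted p under 0.05).

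**Figure D3:**
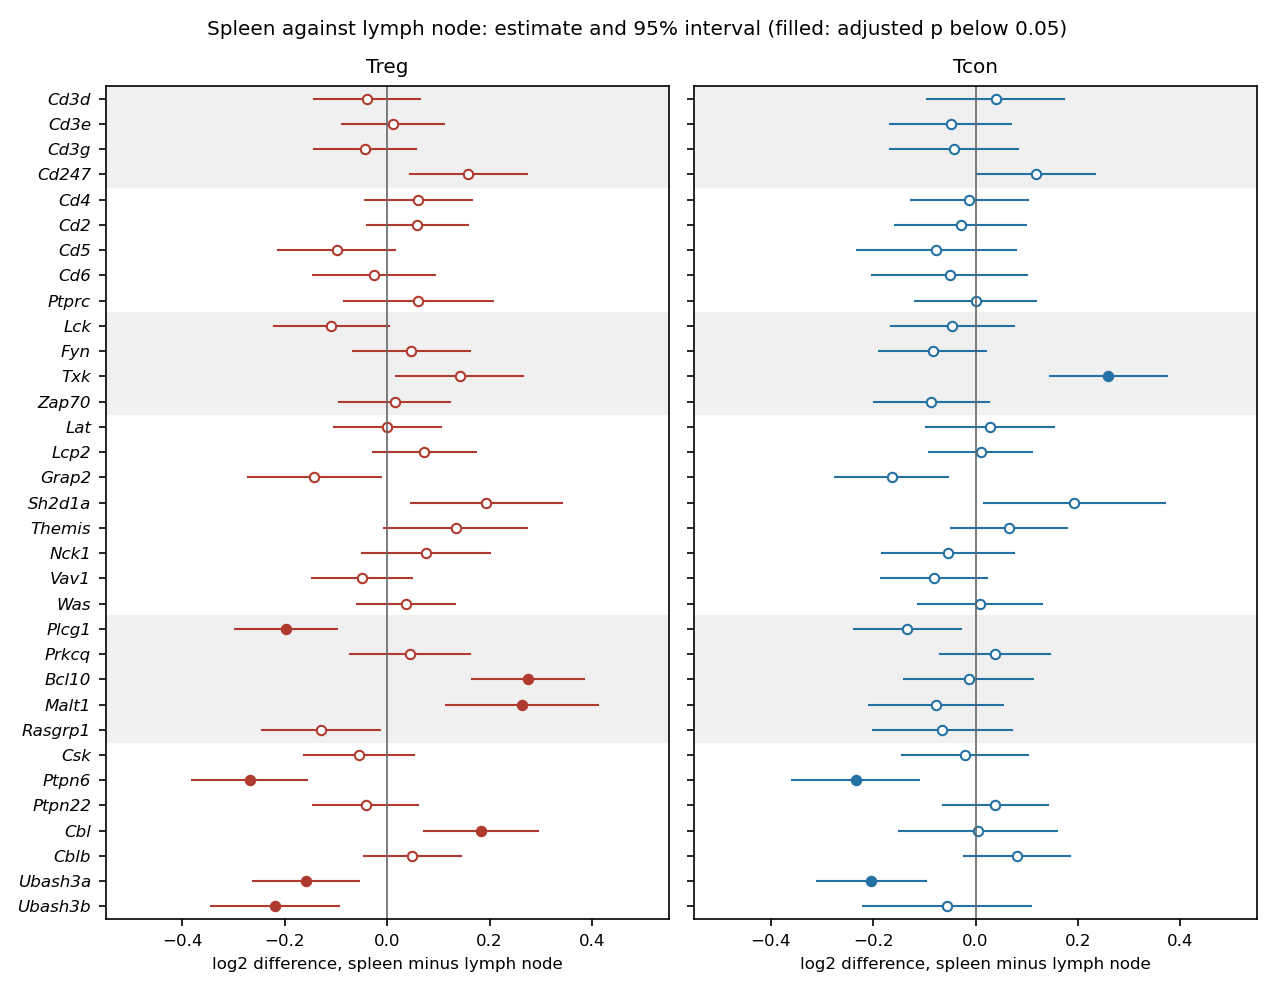
Log2 difference between spleen and lymph node, with treatment as a term, for each of the 33 genes in Treg (left) and Tcon (right); points are estimates, lines 95% intervals, and filled points have an adjusted p below 0.05. In Treg the filled points are branch genes and negative regulators, and Ptpn6 and Ubash3a are filled in both panels.

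Bcl10 and Malt1 showed the widest gap in organ effect between the cell types. In Tcon Bcl10 read 137, 146 and 154 CPM in lymph node and 144, 152 and 138 CPM in spleen, and Malt1 265, 262 and 301 CPM in lymph node and 248, 263 and 272 CPM in spleen. Neither gene separated the organs in Tcon. The organ difference in Treg minus that in Tcon was 0.29 (interval 0.13 to 0.45) for Bcl10 and 0.34 (interval 0.12 to 0.56) for Malt1. Neither passed the adjustment over all genes (limma; adjusted p = 0.0893 and 0.149), so 0 of 33 members were called for this difference, 2 had an unadjusted p under 0.05, and 1.46% of all genes were called (0.368% with a positive and 1.09% with a negative difference). Cbl, called in Treg at 0.18 and estimated at 0.00 in Tcon, had a difference of 0.18 (interval -0.02 to 0.37; adjusted p = 0.469).

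**Figure D4:**
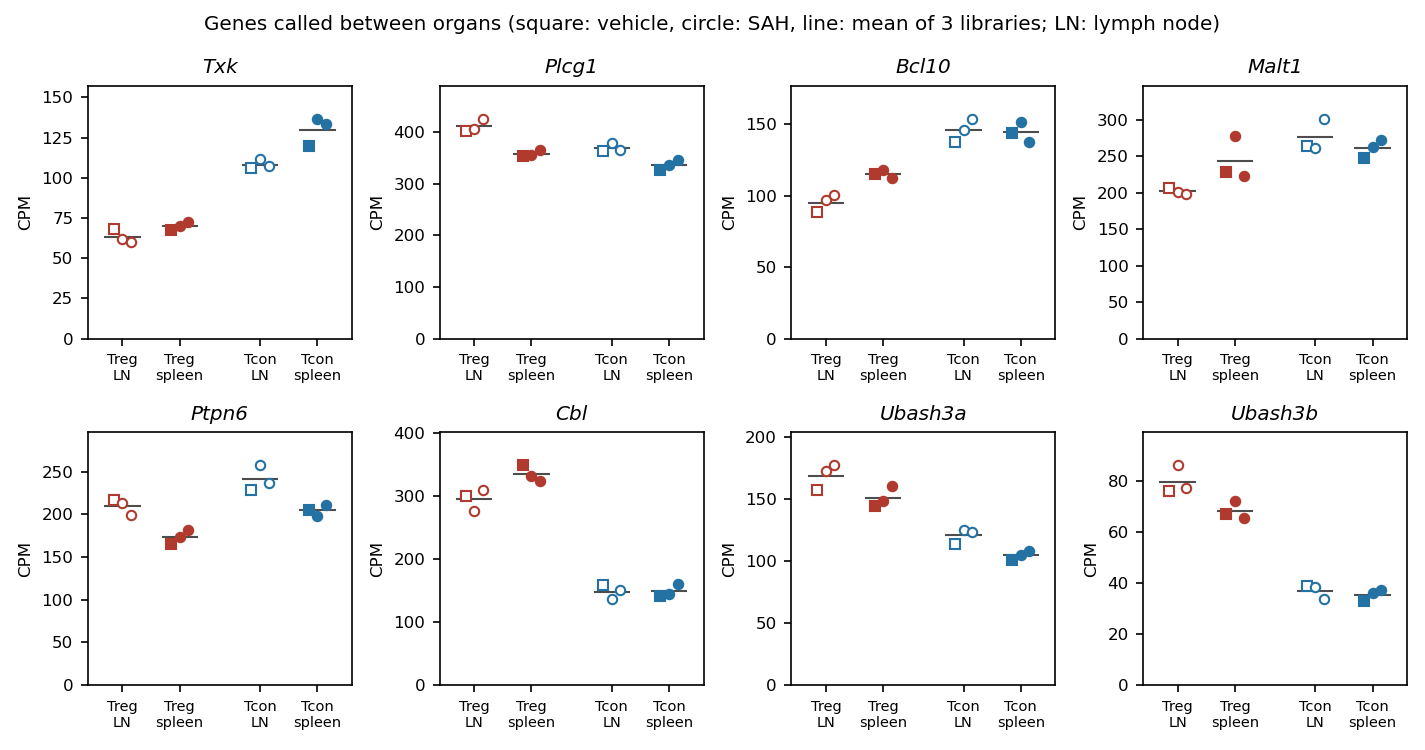
CPM of the 8 genes called between organs in Treg or Tcon, by cell type and organ, on axes that start at 0; squares are vehicle, circles SAH and short lines the mean of 3 libraries. Bcl10 and Malt1 separate the organs in Treg (red) and not in Tcon (blue), while Ptpn6 is lower in spleen in both.

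Markers of other cells also differed between the organs. Of 10 myeloid markers, 4 were listed in Treg and their sum was 6.15 to 8.01 CPM in lymph node and 38.9 to 73.6 CPM in spleen; in Tcon 3 were listed, with 10.4 to 11.9 and 29.9 to 36.5 CPM. Of these, Lyz2 was at 0.901 to 1.33 and 21.6 to 52.2 CPM in Treg and at 0.0800 to 0.664 and 18.1 to 22.7 CPM in Tcon. In Tcon Lyz2 was the only 1 of the 3 called. The other Tcon means in lymph node and spleen were 5.10 and 6.73 CPM for Cd68 and 5.60 and 6.52 CPM for Itgam. Plasma cell markers (2 of 5 listed) summed to 81.5 to 98.2 and 173 to 216 CPM in Treg and to 98.1 to 127 and 143 to 221 CPM in Tcon. Most of the lymph node sum was Xbp1, which was at 81.3 to 97.6 and 96.5 to 105 CPM in Treg. Jchain, the joining chain of secreted antibodies, was at 0.147 to 0.849 and 72.1 to 119.9 CPM in Treg and at 0.281 to 0.373 and 36.7 to 102 CPM in Tcon. B cell markers (3 and 2 of 10 listed) summed to 16.1 to 17.2 and 23.9 to 24.9 CPM in Treg and to 2.68 to 3.56 and 5.39 to 6.85 CPM in Tcon. CD8 and NK cell markers (5 and 7 of 10 listed) summed to 40.6 to 41.1 and 33.5 to 34.8 CPM in Treg, where Nkg7 fell in spleen (18.3 to 22.4 and 9.62 to 12.0 CPM) while Klrb1c (1.08 to 1.44 and 3.38 to 3.91 CPM) and Eomes (2.05 to 3.59 and 4.73 to 5.40 CPM) rose. In Tcon they summed to 41.2 to 46.7 and 86.4 to 114 CPM, and 5 of the 7 rose in spleen. The red cell gene Alas2, the only 1 of 6 listed and only in Treg, was at 0.600 to 0.784 and 2.31 to 28.8 CPM. The defining markers Ms4a1, Cd8a, Itgax and Adgre1 are not in the tables used here. Markers of Treg themselves differed too. Of the 8 Treg markers, 4 were called lower in spleen Treg and 0 higher (limma), where 6.01% of all genes were called lower. These were Ikzf4 (log2 difference -0.59), Il2ra (-0.43), Nrp1 (-0.40) and Gpr83 (-0.30). Foxp3 was not called, with means of 701 CPM in lymph node and 679 CPM in spleen. In Tcon 0 of the 8 were called. The part of other cells, or of these marker shifts, in the organ differences of the members was not tested.

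Genes of the wider pathway also passed the test between organs. Of the 97 further pathway genes in Treg, 19 rose in spleen and 3 fell, against 8.71% and 6.01% of all genes in those directions. The largest were the ubiquitin ligases Nedd4 (log2 difference 0.76) and Rnf128 (0.60), the adhesion receptor Crtam (0.45), the kinase Tec (0.43), the GTPase-activating protein Tagap (0.41) and the costimulatory receptor Cd28 (0.38). Rnf128 was close to the minimum of 1 CPM, at 1.42 to 1.73 CPM in lymph node and 2.62 to 3.55 CPM in spleen. Crtam was as low, at 1.60 to 1.92 and 2.38 to 3.43 CPM. Nedd4 was also low, at 4.59 to 6.77 CPM in lymph node and 7.69 to 12.5 CPM in spleen, while Cd28 was at 626 to 781 and 860 to 953 CPM. Of the 16 receptor-induced genes in Treg, 6 rose and 4 fell, so that they did not move in 1 direction. Dusp5 (0.37), Nr4a3 (0.36) and Nr4a1 (0.35) had the largest increases, and the transcription factor Egr3 (-0.45) and the interleukin-2 receptor chain Il2ra (-0.43) the largest decreases. In Tcon 5 of 96 further pathway genes rose in spleen (Nedd4 1.88, Ptprj 1.69, Tec 0.57, Tagap 0.41 and Cd226 0.29) and 3 fell (Cd96 -0.27, Pag1 -0.26 and Tespa1 -0.23), against 3.28% and 1.46% of all genes. Of the 16 receptor-induced genes in Tcon, Nr4a1 (0.49) and Cd69 (0.24) rose, against the same 3.28%. The Treg minus Tcon organ difference, called for 1.46% of all genes, was called for Ptprj (-1.39) and Nedd4 (-1.12) among the further pathway genes, and for Il2ra (-0.87) and Dusp5 (0.30) among the receptor-induced genes. The first 3 were low in Tcon. There Ptprj was at 1.04 to 1.47 CPM in lymph node and 5.89 to 7.37 CPM in spleen, and Nedd4 at 3.01 to 4.16 and 11.3 to 19.6 CPM. Il2ra was at 3.85 to 4.80 and 4.66 to 6.94 CPM in Tcon, where its organ difference was not called (limma; adjusted p = 0.0786).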

How the data were processed

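RNA from sorted Treg and Tcon was made into stranded mRNA libraries, per the labels' protocols. The authors used TopHat, Bowtie and edgeR with the build mm10, per the submitters' processing notes. For versions, annotation and counting settings, nothing is given in these sources. There is 1 deposited table per cell type, whose signal values are headed as CPM per library and total 971928 to 1021433 per library, beside the authors' own log2 fold changes, p-values and false discovery rates per gene and a deposited score of 1, 0 or -1 for their call. The values lie within 0.1 read of whole multiples of 1 read (100% of values under 10), and 1 read is worth at most 0.0267 CPM. Count tests were not run. The deposited unit is not counts, and too few values lay near 1 read for recovered reads to be accepted as counts.

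Values were analysed as log2(CPM + 1), after a minimum of 1 CPM in 2 libraries that removed 0 genes, with limma 3.58.1 (R 4.3.3; trended variance): organ and treatment as additive terms within each cell type (3 residual degrees of freedom), organ by treatment within a cell type, and all 12 libraries for differences between Treg and Tcon. Fold changes are on that scale, which understates changes of low genes. P-values were adjusted by Benjamini-Hochberg over all genes, and calls are below 0.05. The scripts were tested on simulated data. Groups come from the sample titles. Levels across the separately normalized tables were not tested.

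Members and gene lists were chosen with earlier results of these data known. Every member is accounted for by role, with values for each called gene, the 4 chains, the 3 largest estimates per direction and the 10 largest level ratios without overlap; in the other lists up to 10 called pathway genes and 5 receptor-induced genes per comparison are named. Alternatives were the pseudocount, the filter, total rescaling, no variance trend, leaving out each library, and library number as a block. For levels, ratios relative to the median of all genes were an alternative too.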

Additional observations from a re-analysis of the deposited data

How the results depend on the processing

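No called difference between groups reversed its sign under any setting, but the split of levels between Treg and Tcon did change its larger side. Called members between spleen and lymph node numbered 2 in Treg (Bcl10 and Ptpn6) and 0 in Tcon without the variance trend, and between 2 and 11 in Treg and 0 and 1 in Tcon with each library left out in turn. With SAH in Tcon that range was 0 to 2, and with SAH in Treg and for all 4 differences between effects it was 0. After rescaling libraries to the same total, Cbl lost its organ call in Treg (adjusted p = 0.0505) and Rasgrp1 gained one (0.0486); other pseudocounts, filters, median scaling and merging of identical symbols changed no count of called members. Members wholly higher in Treg numbered 14 to 15, and wholly higher in Tcon 9 to 10, with each library number left out. With ratios set relative to the median of all genes they numbered 12 and 13, so the larger group was then that of Tcon.

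Library numbers are shared by 1 Treg and 1 Tcon library, and the labels do not say what a number marks. Deviations of same-numbered libraries from their group means correlated at 0.438 in lymph node and 0.556 in spleen, across 9784 genes that are not independent replicates, over the only 2 groups that allow it. With the library number as a replicate block, 2 members (Bcl10 and Malt1) were called for the organ difference between Treg and Tcon, among 703 genes in place of 143, and the peptide difference was called at 0 members and 76 genes in place of 0.

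Over all genes, calls without the trend fell from 21 to 7 (SAH, Treg) and from 103 to 11 (SAH, Tcon). Leaving out libraries gave 7 to 95 and 11 to 226 for these, 768 to 1830 in place of 1531 and 215 to 628 in place of 468 for the organs, 0 to 7 and 79 to 287 for the Treg against Tcon differences, and 0 to 94 (Treg) and 0 to 15 (Tcon) for the organ by SAH differences. The planned count tests (edgeR, DESeq2) were not run, and the organ by SAH fit could not be made without a vehicle library. With 1 vehicle library per organ, SAH differences within the intervals given remain possible. The intervals are not adjusted over genes, so a difference whose interval left out 0 could also go uncalled.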
